A study of Mus musculus with 8 samples.

Results

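The G1 cyclins and cyclin-dependent kinase (CDK) inhibitors described here are 10 mouse genes: the D-type cyclin genes Ccnd1, Ccnd2 and Ccnd3, the E-type cyclin gene Ccne1, the kinase genes Cdk4 and Cdk6, and the inhibitor genes Cdkn1a, Cdkn1b, Cdkn2a and Cdkn2b. They were chosen by gene symbol, and all 10 were found, as 14 of the 34535 transcript isoforms and 10 of the 24358 genes of the deposited table. The table compares adipocyte precursors (APs), mesenchymal skin cells able to become fat cells, that were sorted by flow cytometry from the dermis of male C57/Bl6 mice aged 7 weeks. Nonwounded dorsal skin gave 6 samples and the wound bed at day 5 gave 2. Below, values given for nonwounded skin or for the wound bed are those of the APs sorted from it, not of whole tissue. The labels do not say whether these came from separate or pooled animals, so the p-values cover no more than the variation among these samples, which may be technical.

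D-type cyclins are the cyclins that respond to growth signals. They bind and activate CDK4 and CDK6, which phosphorylate the retinoblastoma protein and so release E2F transcription factors. Cyclin E, itself made from an E2F target gene, then activates CDK2 for entry into S phase. The INK4 proteins (from Cdkn2a and Cdkn2b) block CDK4 and CDK6, and the Cip/Kip proteins p21 (Cdkn1a) and p27 (Cdkn1b) block CDK2 and also take part in the assembly of cyclin D complexes. In skin, resting dermal mesenchymal cells are largely out of the cycle, and cells of a wound bed divide while new tissue forms.

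For each isoform the table holds 1 FPKM per group (fragments scaled by transcript length and library depth, so that levels of different genes can be set side by side) and 1 Cuffdiff p-value, which is the source of every adjusted p below. It has no value per sample, so no SD can be given, the depth is unknown, and whether the samples of both groups overlap cannot be seen. An isoform is called here when the deposited p, adjusted over all 17775 tested isoforms by Benjamini-Hochberg, is under 0.05. Of all tested isoforms 12.9% were called, 5.66% higher and 7.25% lower in the wound bed. Isoforms with both FPKM values at 1 or more had a median log2 fold change, wound bed over nonwounded, of -0.11, and fold changes are given relative to 0, not to this shift.

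Cdkn1a transcripts rose and Ccnd3 transcripts fell in wound bed APs, and no other isoform of the 10 genes was called. In bulk RNA such as this, fewer cells of a type and less RNA per cell cannot be told apart. Of 14 isoforms 11 were tested, 1 was called higher, 1 lower and 9 were not called. These counts are too small to read against the 5.66% and 7.25% called higher and lower among all tested isoforms. Summed over isoforms, 8 genes stood higher in the wound bed and 2, Ccnd1 and Ccnd3, stood lower. Of the 8 only Cdkn1a had an isoform called, and the share of all genes standing higher was not computed. The median log2 fold change of the major isoforms (the tested isoform of a gene with the largest sum of both FPKM) was 0.36 over the 9 genes that had one.

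**Figure D1:**
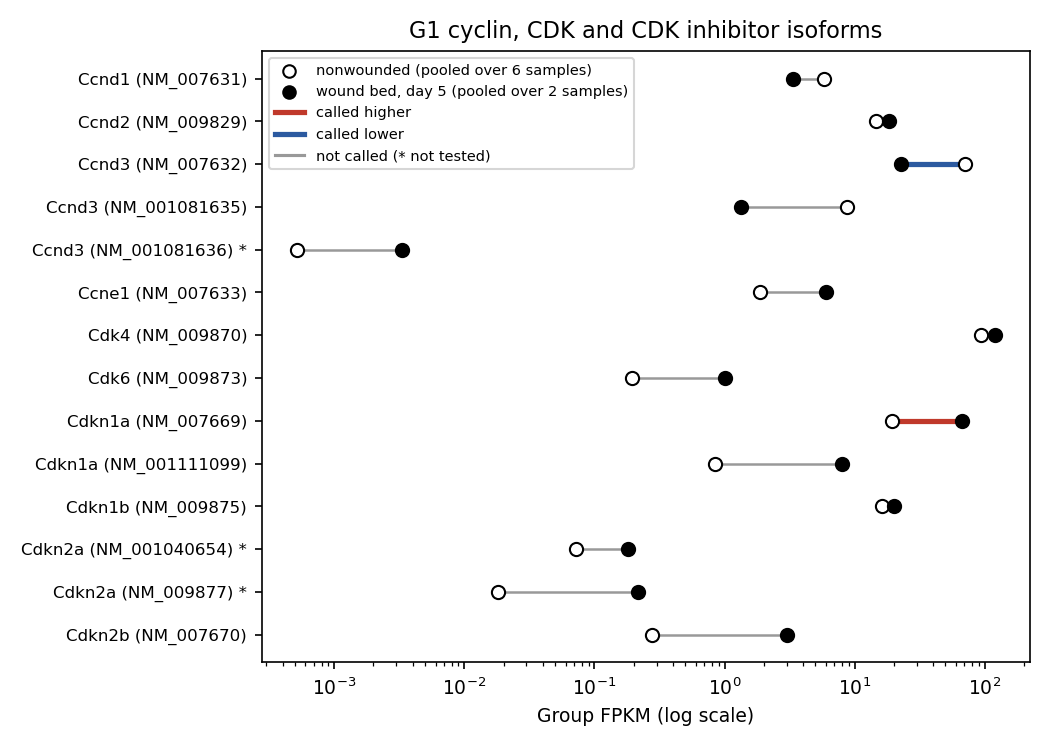
Group FPKM (horizontal log axis) of each isoform of the 10 genes (rows), with open circles for nonwounded skin, filled circles for the day 5 wound bed, and a line coloured red or blue where the isoform was called higher or lower. The Cdkn1a isoform NM_007669 lies at 19.4 and 67.4 and the Ccnd3 isoform NM_007632 at 70.5 and 22.6, and asterisks mark isoforms that were not tested.

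Both genes with a call are transcribed from 2 start sites, and the stretches before them are shown because the isoforms of each gene differ by their start. The sequences are 250 bases upstream of each start in RefSeq (GRCm38.p6), 5′ to 3′ on the plus strand of chromosome 17. Capitals mark the GC box (GGGCGG or its reverse complement CCGCCC), the motif bound by Sp1 family factors, and in the distal Cdkn1a sequence the half-site of p53, the 10-base consensus for 1 dimer of that factor.

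Cdkn1a, start of NM_007669, chr17:29093519-29093768: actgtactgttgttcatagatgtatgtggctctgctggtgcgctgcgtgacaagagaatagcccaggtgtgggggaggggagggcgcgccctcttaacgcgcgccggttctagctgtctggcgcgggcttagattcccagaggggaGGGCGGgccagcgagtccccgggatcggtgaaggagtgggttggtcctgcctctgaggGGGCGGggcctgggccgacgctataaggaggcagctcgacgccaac
Cdkn1a, start of NM_001111099, chr17:29090729-29090978: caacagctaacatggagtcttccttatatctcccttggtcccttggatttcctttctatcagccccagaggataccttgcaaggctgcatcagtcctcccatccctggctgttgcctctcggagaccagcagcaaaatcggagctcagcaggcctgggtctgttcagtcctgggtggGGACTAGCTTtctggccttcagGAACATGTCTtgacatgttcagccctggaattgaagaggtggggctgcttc
Ccnd3, start of NM_007632, chr17:47593217-47593466: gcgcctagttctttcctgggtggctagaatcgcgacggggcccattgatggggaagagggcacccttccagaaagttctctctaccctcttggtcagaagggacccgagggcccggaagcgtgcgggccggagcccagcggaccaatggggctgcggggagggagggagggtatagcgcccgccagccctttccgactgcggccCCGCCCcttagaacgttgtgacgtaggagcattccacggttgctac
Ccnd3, start of NM_001081635, chr17:47504801-47505050: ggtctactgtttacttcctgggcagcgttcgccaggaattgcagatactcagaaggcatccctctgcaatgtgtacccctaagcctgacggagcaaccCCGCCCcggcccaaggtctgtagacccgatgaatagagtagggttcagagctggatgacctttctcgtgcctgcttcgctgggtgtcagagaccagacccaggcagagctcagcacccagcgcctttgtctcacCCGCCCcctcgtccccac

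The proximal Cdkn1a sequence holds 2 GC boxes, that of the called Ccnd3 isoform 1 and the distal Ccnd3 sequence 2, and such a box stands in 32.7% of the 32851 promoter sequences of the same length. The distal Cdkn1a sequence holds 0 GC boxes and 2 p53 half-sites, beginning 73 and 51 bases before the start, against at least 1 half-site in 7.13% of all promoters. In the same window the CCAAT box (CCAAT or ATTGG) occurs 108 bases before the start of the called Ccnd3 isoform (33.8% of all promoters hold one). A cyclic AMP response element (TGACGTCA, 1.55% of all promoters) begins 46 bases before the start of Cdkn2b. The E2F motif (TTTCGCGC, TTTCCCGC, TTTGGCGC or TTTGCCGC, either strand, 1.86% of all promoters) was matched among the members only at the distal Cdkn2a start, which is the Arf start, 99 bases upstream. The AP-1 motif (TGANTCA, its own reverse complement, 6.75% of all promoters) matched at none of the 11 member starts searched, which belong to 8 of the 10 genes. These are matches of letters in a window and are not evidence of binding.

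Among the D-type cyclins, Ccnd3 changed and the other 2 were not called. The main Ccnd3 isoform, NM_007632, had a pooled FPKM of 22.6 in wound bed APs against 70.5 in nonwounded APs, 3.12-fold lower (log2 fold change -1.64, adjusted p = 0.000882 from the p in the authors' deposited table). Of tested isoforms of all levels with both values above 0, 12.9% fell further, and large changes were more frequent at low levels. A difference of at least 1 on the log2 scale was seen in 2978 of 7066 with a larger FPKM from 1 to under 5. From 20 to under 100, where this isoform lies, it was seen in 648 of 2677. The second tested isoform, NM_001081635, was also lower, at 1.35 and 8.73 (-2.69), without a call (adjusted p = 0.152 from the p in the authors' deposited table). It starts 88419 bases upstream, and both isoforms carry the same 876 coding bases, so the predicted protein is the same. A further isoform, NM_001081636, was not tested, at 0.00334 and 0.000513. The sum over Ccnd3 isoforms went from 79.2 in nonwounded skin to 24.0 (-1.72).

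The Ccnd3 locus in the table, on chromosome 17 from 47505051 to 47611492, also holds Bysl, a ribosome biogenesis gene on the opposite strand whose annotated span overlaps that of Ccnd3 by 361 bases. Bysl was called lower as well, at 4.84 against 17.8 (-1.88). The labels do not say that strand was used in counting, and reads from the overlap cannot then be told apart. Whether this overlap has a part in the Ccnd3 value was not tested.

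Ccnd1, the D-type cyclin most often studied as a mitogen sensor in fibroblasts, stood at 3.34 in wound bed APs against 5.83 in nonwounded APs (-0.80), with a p of 0.0186 in the authors' deposited table and an adjusted p = 0.103. It was the lowest of the 3 D-type cyclins in both groups. Its annotated span overlaps by 1771 bases that of Oraov1 on the opposite strand, which stood at 5.32 and 7.95 without a call. Ccnd2, often expressed where other D-type cyclins are low, stood at 18.4 and 14.7 (0.32, adjusted p = 0.412 from the p in the authors' deposited table).

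In nonwounded skin Ccnd3 supplied 79.4% of the summed D-type cyclin FPKM, Ccnd2 14.7% and Ccnd1 5.84%. In the wound bed the shares were 52.5%, 40.2% and 7.31%. The total was 99.7 in nonwounded skin and 45.7 in the wound bed, 2.18-fold lower. The FPKM of Ccnd3 alone fell by slightly more than the total did, with Ccnd1 also lower and Ccnd2 higher in the wound bed. The ratio of Ccnd3 to Ccnd2 went from 5.40 to 1.30. These sums carry no error and were not tested.

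**Figure D2:**
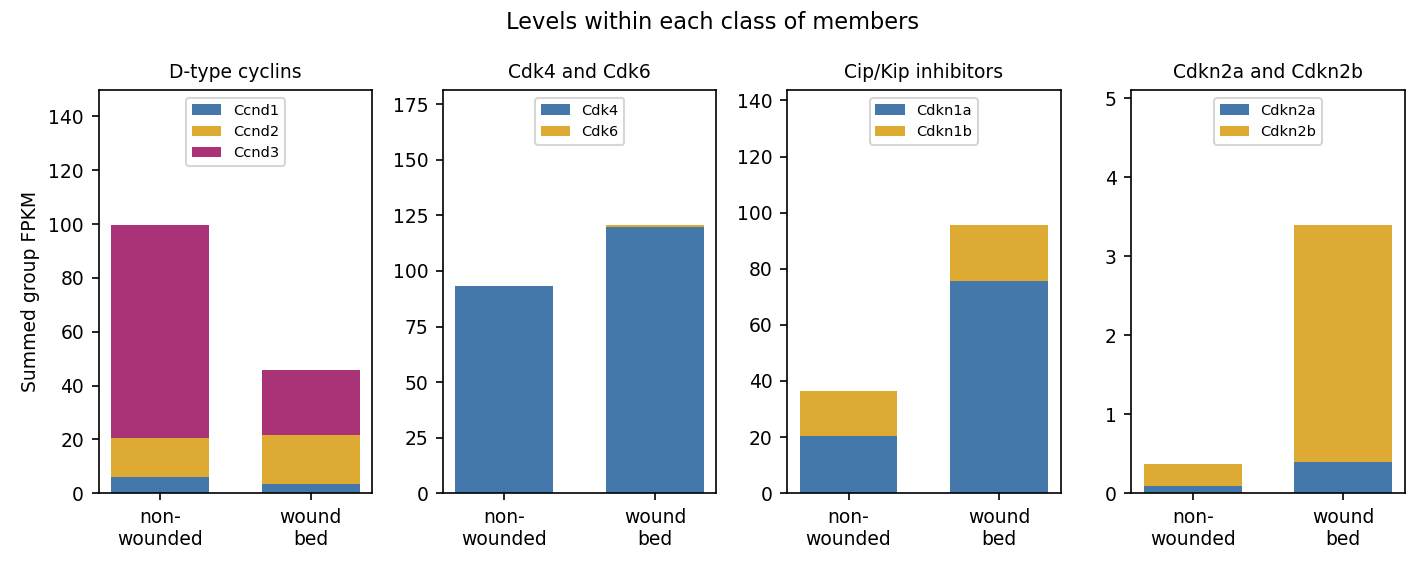
Summed group FPKM (vertical axis, each panel with its own scale from 0) of the members of each class in nonwounded skin and in the wound bed, stacked by gene. The D-type cyclin total is 99.7 against 45.7, and Ccnd3 alone falls by slightly more than the total does. The Cip/Kip panel, which holds Cdkn1a and Cdkn1b but not Cdkn1c, totals 36.5 against 95.7 with most of the difference in Cdkn1a. The bars carry no error because each column is 1 pooled value.

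Ccne1, the cyclin partner of CDK2 at the end of G1, stood at 6.04 in the wound bed against 1.87, 3.23-fold higher (1.69), and narrowly missed the call (p = 0.00885 in the authors' deposited table, adjusted p = 0.0621). The largest deposited p among called isoforms was 0.00645. When p-values were adjusted only over the 9350 isoforms that reached an FPKM of 5 in either group, Ccne1 was called (adjusted p = 0.0429 from the p in the authors' deposited table). The direction of its change was opposite to that of Ccnd3 and Ccnd1.

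Cdk4 was the most abundant member in both groups, at 120 in wound bed APs against 93.1 in nonwounded APs (0.36, adjusted p = 0.332 from the p in the authors' deposited table). Its level lay above that of 96.6% of tested isoforms in wound bed APs against 95.8% in nonwounded APs. It shares 641 annotated bases with Tspan31, a tetraspanin gene on the opposite strand, which stood at 66.8 and 66.6. Cdk6, the sister kinase, was barely detected, at 1.01 and 0.194 (2.38, adjusted p = 0.180 from the p in the authors' deposited table). With a pseudocount of 1 the log2 fold change of Cdk6 was 0.75. Cdk6 made up 0.838% of the summed FPKM of both kinases in wound bed APs against 0.208% in nonwounded APs. The summed kinase FPKM stood at 0.936 times the summed D-type cyclin FPKM in nonwounded skin and at 2.64 times in the wound bed, with a cyclin total 2.18-fold lower and a kinase total 1.29-fold higher.

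Cdkn1a, which encodes p21, a CDK inhibitor and a textbook target of p53, was the one member called higher. Its main isoform NM_007669 stood at 67.4 in wound bed APs against 19.4 in nonwounded APs, 3.48-fold higher (1.80, adjusted p = 0.000882 from the p in the authors' deposited table). This adjusted p is the smallest in the table and is shared by 1008 isoforms. Of tested isoforms of all levels with both values above 0, 8.27% rose further than NM_007669. The isoform from the distal start, NM_001111099, stood at 8.03 against 0.845 (3.25) without a call (adjusted p = 0.239 from the p in the authors' deposited table). It begins 2790 bases upstream, and both isoforms carry the same 477 coding bases. Its share of the summed Cdkn1a FPKM was 10.6% in wound bed APs against 4.17% in nonwounded APs, and this difference in share was not tested. The gene total was 75.5 against 20.2 (1.90), which placed Cdkn1a next after Cdk4 in the wound bed and after Cdk4 and Ccnd3 in nonwounded skin.

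Cdkn1b, which encodes p27, the inhibitor typical of resting cells, stood at 20.2 and 16.3 (0.31, adjusted p = 0.452 from the p in the authors' deposited table). Cdkn1a and Cdkn1b were at similar levels in nonwounded skin, with a ratio of 1.24, and at a ratio of 3.73 in the wound bed. Together they came to 95.7 in wound bed APs against 36.5 in nonwounded APs. The ratio of this Cdkn1a and Cdkn1b total to the D-type cyclin total was 2.09 in wound bed APs against 0.366 in nonwounded APs. That change was made by the 2 called genes in opposite directions. A further Cip/Kip gene, Cdkn1c, is not a member and was left out of the total. Its isoform sums were 41.8 in wound bed APs and 50.6 in nonwounded APs, so the ratio does not describe the whole family.

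The neighbouring INK4 genes on chromosome 4 were low in both groups. Cdkn2b, which encodes p15, an inhibitor known to respond to TGF-beta, stood at 3.0 in wound bed APs against 0.275 in nonwounded APs. Its log2 fold change of 3.45 was exceeded by 2.90% of tested isoforms, fell to 1.65 with a pseudocount of 1, and was not called (p = 0.0185 in the authors' deposited table, adjusted p = 0.103). Cdkn2a gives 2 proteins from separate first exons, p16 from NM_001040654 and the p53 activator Arf from NM_009877, whose coding parts share 317 bases. The p16 isoform stood at 0.181 and 0.0715 and the Arf isoform at 0.216 and 0.0181, and neither was tested.

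How often a change was called depended on the level. At each level below, the first share covers all tested isoforms. The second covers only isoforms with both values above 0, since the others have no fold change, so the shares rest on different sets. With the larger of both FPKM values from 1 to under 5, where Cdkn2b and Cdk6 lie, 6.50% of 7066 tested isoforms were called, and 7.45% of those that differed by at least 1 on the log2 scale. From 5 to under 20, where Ccne1, Ccnd1 and Ccnd2 lie, 14.1% of 5768 were called, and 38.6% of those that differed by at least 1. From 20 to under 100, where both called members and Cdkn1b lie, 25.3% of 2677 were called, and 75.3% of those that differed by at least 1. At 100 or more, where Cdk4 lies, 30.8% of 905 were called, and 74.8% of those that differed by at least 1. A missing call for the low members therefore does not show that their levels were alike.

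**Figure D3:**
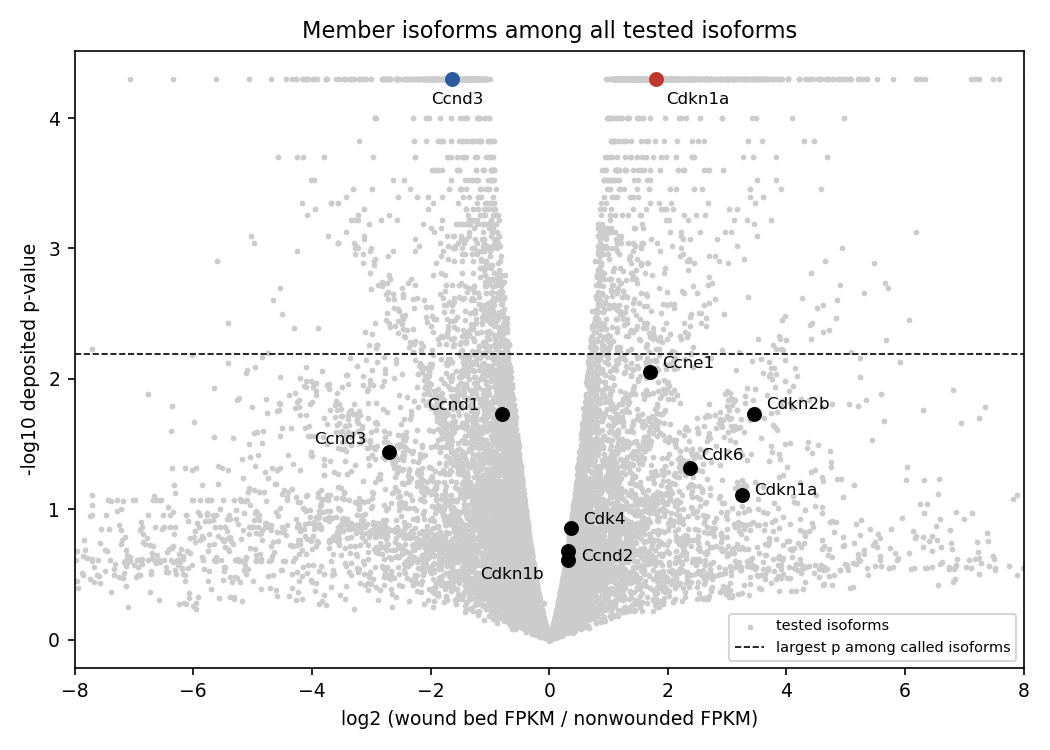
Log2 fold change (wound bed over nonwounded FPKM, horizontal axis, drawn to 8 in either direction) against the -log10 of the deposited p-value (vertical axis), with grey points for tested isoforms not at 0 in either group and labelled points for the 11 tested member isoforms, and a dashed line at the largest p among called isoforms. Cdkn1a (1.80) and Ccnd3 (-1.64) stand at the smallest p in the table and Ccne1 (1.69) lies just under the line.

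Other regulators of the step from G1 to S phase went both ways. Of 30 tested genes that reached an FPKM of 1 in either group, 1 was called higher and 2 lower, against 7.39% higher and 8.70% lower of all 12961 such genes. Their median log2 fold change was 0.04, beside -0.14 for all such genes. E2f3, a gene of an activating E2F factor, rose from 1.53 to 4.22 (1.46). E2f7, which encodes an E2F repressor, fell from 8.28 to 1.55 (-2.42), and Cdk7, the kinase gene of the CDK-activating complex, fell from 7.26 to 4.27 (-0.77). Cdk2, the kinase partner of cyclin E, stood at 10.8 and 10.3, and Rb1, the retinoblastoma gene, at 2.81 and 2.76, without a call. The major isoform of E2f1 stood at 6.29 in wound bed APs against 11.1 in nonwounded APs (-0.82) and was not called. The isoform sums of E2f1 were closer, at 8.68 and 11.2 (-0.36).

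No call was made for the other inhibitor genes measured beside the members. Cdkn1c, which encodes the Cip/Kip protein p57, stood at 40.6 and 47.5 (-0.22) without a call, a level between those of Cdkn1a and Cdkn1b in the wound bed and above both in nonwounded skin. The major isoform of Cdkn2c, an INK4 gene, stood at 9.37 and 13.4 (-0.52) without a call, and its isoform sums at 12.1 and 14.8 (-0.29). Ccne2, the second E-type cyclin gene, had no tested isoform, with a sum of 0.606 and 0.428, so that Ccne1 supplied most E-type cyclin transcripts, at 9.96 times Ccne2 in wound bed APs against 4.37 times in nonwounded APs.

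Among replication and mitosis genes, many of them E2F targets, 34 tested genes reached an FPKM of 1 in either group. Of these 6 were called higher and 0 lower, beside the 7.39% and 8.70% of all such genes. A log2 fold change above 0 was seen in 33 of the 34. Their median was 0.83, beside -0.14 for all such genes. The 4 largest called rises were Mki67 (1.45 to 5.52, log2 fold change 1.93), which encodes the antigen Ki-67, Rrm2 (1.72), a ribonucleotide reductase gene, Cdk1 (1.53), the mitotic kinase gene, and Top2a (1.31), a topoisomerase gene.

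Cdkn1a is linked as a target to the p53 pathway list. Of the 24 tested genes of that list 5 were called higher and 1 lower, beside the same 7.39% and 8.70%. Their median was 0.40, beside -0.14 for all such genes. Btg2, an antiproliferative gene, rose from 26.5 to 240 (3.18) and Plk2, a polo-like kinase gene, from 2.62 to 35.8 (3.77). Gadd45a, a stress response gene that arrests the cycle, rose from 5.80 to 36.9 (2.67), and Pmaip1, a BH3-only gene, from 0.368 to 5.50 (3.90). Sesn1, a sestrin gene, fell from 35.7 to 5.12 (-2.80). Trp53 itself had an isoform sum of 25.1 and 23.8, and Mdm2, a target that restrains p53, stood at 15.6 and 4.27 (1.87) without a call. Several of these genes also answer to other early response signals, and the p53 protein was not measured.

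**Figure D4:**
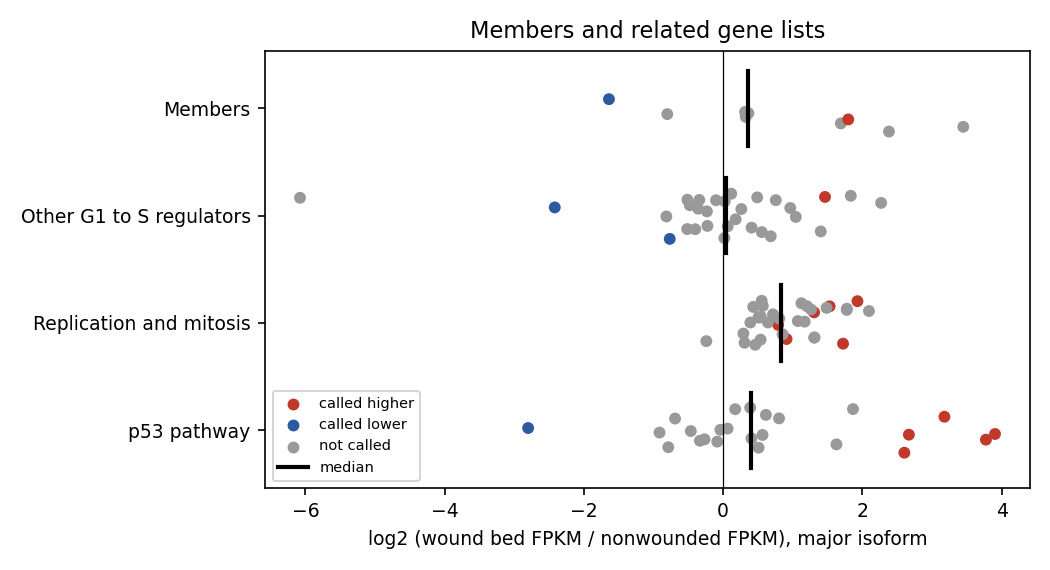
Horizontal axis, log2 of the wound bed over the nonwounded FPKM for the major isoform, drawn as 1 point per gene in rows for the members and the related lists. Only tested genes that reached an FPKM of 1 in either group are drawn. Red points were called higher, blue points lower and grey points neither, and bars mark medians. The medians are 0.36 for the members, 0.04 for other G1 to S regulators, 0.83 for replication and mitosis and 0.40 for the p53 pathway.

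The label of the cells was checked against marker genes. AP markers were present in both groups, with Pdgfra at 81.2 and 78.8, and 1 of 6 (Cd24a, 9.38 against 24.9) was called lower and 0 higher. Their summed FPKM was 2594 in wound bed APs against 4046 in nonwounded APs, mostly through Ly6a and Cd34, neither called, and 3 of the 6 had a log2 fold change above 0. Most macrophage markers stood higher in the wound bed, with 7 of 13 called higher and 0 lower. Their summed FPKM was 992 against 347, with Lyz2 the largest part (524 against 174). A log2 fold change above 0 was seen in 12 of the 13, and Cd163 went the other way without a call (1.26 against 3.51). The defining leukocyte gene Ptprc stood at 4.13 and 0.453 without a call, and none of the 13 was at 0. Neutrophil markers summed to 97.1 and 1.49, with 0 of 2 tested called. Keratinocyte markers summed to 32.7 and 17.8, with 2 of 5 called higher. Markers lower in the wound bed were those of erythroid cells (135 against 2712, 3 of 4 called), mast cells (5.17 against 47.5, 3 of 3), mature adipocytes (3.83 against 90.6, 1 of 5) and skeletal muscle (6.83 against 77.6, 1 of 4). Endothelial markers had 0 of 4 called, and their sums of 26.4 and 89.3 rest on Tek (18.4 against 83.1), while isoform sums of the other 5 were higher in the wound bed, and T cell markers to 0.542 and 0.687 with none tested. All 10 members are genes used by many cell types, and the part of such cells in the values of Cdkn1a, Ccnd3 and the other members was not tested.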

How the data were processed

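Libraries were made with the Illumina TruSeq mRNA protocol, per the labels' protocols. The submitters' processing notes name TopHat2 2.0.2, Cuffdiff 2.0.2 and the mouse build mm9. The FPKM of each group and the p-value of each isoform are as the authors deposited them, with samples of a group pooled into 1 value, and 0 per-sample columns were left unused. The 17775 isoforms with the authors' status OK were the tested ones. Adjusting the deposited p-values over these gave the deposited yes or no for all 34535 isoforms. Fold changes were computed from the FPKM without a pseudocount, since the deposited fold column is nonwounded over wound bed and was not used. The adjustment was tested on simulated data. A total of 56 isoforms with date-like symbols were renamed by transcript identifier, and 15 with too many fragments or a failed fit were left out.

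Loci are as in the table, with starts counted from 1. For 8 of the 10 members an end of the locus lay no more than 100 bases from that of the RefSeq GRCm38.p6 gene, and for 4 of them, on 3 chromosomes, both ends were identical. The loci are therefore GRCm38 coordinates although the notes name mm9. Sequences, start sites and overlaps are from RefSeq GRCm38.p6 and GENCODE M21. Isoforms were matched to GENCODE by RefSeq identifier.

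Related lists hold other G1 to S regulators (33 of 34 symbols found), replication and mitosis genes (35 of 35) and p53 pathway genes (24 of 24). The text names every member, up to 4 called genes per direction and list with the largest change, and Rb1, E2f1, Cdk2, Ccne2, Cdkn1c, Cdkn2c, Mki67, Trp53 and Mdm2. Bysl, Oraov1, Tspan31, Pdgfra and Ptprc, and Cd24a, Ly6a, Cd34, Tek, Lyz2 and Cd163, chosen after their values were seen, were named for their position or as a marker. The genes named under other observations are the called ones and Ccng2, which was not called. Members and lists were chosen with earlier results of these data known. The computations used Python 3.11.15, numpy 2.4.6, pandas 2.3.3 and matplotlib 3.10.9.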

Additional observations from a re-analysis of the deposited data

How the results depend on the processing

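The calls of Cdkn1a and Ccnd3 held at adjusted p thresholds of 0.01 and 0.1, when a change of 1 on the log2 scale was also required, and with FPKM minimums of 1 and 5. Member isoforms called higher came to 2, with Ccne1 added, at an adjusted p under 0.1 and with an FPKM of at least 5, against 1 as reported. All 54 fold changes recomputed for 9 member genes under 6 settings (both pseudocounts, centring, isoform sums and both other choices of isoform) kept their sign, and 2 moved by over 1.5 times, both with a pseudocount of 1: Cdkn2b from 3.45 to 1.65 and Cdk6 from 2.38 to 0.75 on the log2 scale. Other G1 to S regulators called higher numbered 1 as reported, 0 at 0.01 and with an FPKM of at least 5, and 3 at 0.1, and those called lower 2 as reported and 1 at 0.01. Replication and mitosis genes called higher numbered 6 as reported, 3 at 0.01 and 11 at 0.1. For p53 pathway genes, those called higher numbered 5 as reported, 4 at 0.01 and 7 at 0.1, and those called lower 1 as reported and 2 at 0.1. No paired analysis was possible because the table holds 1 pooled value per group, and for the same reason no replicate could be left out.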

Other observations

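Cyclin, CDK and related genes outside the lists above (36 tested symbols that reached an FPKM of 1 in either group, chosen by symbol after the members' values were seen) had 3 called higher and 1 lower, with a median log2 fold change of -0.27, beside 7.39% higher, 8.70% lower and a median of -0.14 over all such genes. Ccnl1, a cyclin gene linked to RNA splicing, rose from 25.1 to 104 (2.05), Cdk17 from 3.04 to 6.74 (1.15) and Ccnyl1 from 11.3 to 19.5 (0.79). Cdk20 fell from 17.2 to 5.62 (-1.61). Ccng2, a cyclin gene associated with arrest, stood at 21.5 and 23.5 and was not called.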
